A study of Mus musculus with 2 samples.

Results

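Open chromatin around 10 germline genes, Dazl, Ddx4, Mael, Hormad1, Tex14, Sycp1, Sycp3, Tdrd1, Stk31 and Brdt, was examined in whole mouse embryos. The genes were chosen by name out of the 21938 protein-coding genes of the GENCODE M21 annotation, and each was studied over its gene body and 30 kb on either side. Their list was selected on peak and hotspot calls of these replicates, since the promoter peaks of some of them were already known. Peak calls at their transcription start sites (TSSs) are therefore given as descriptions, with no test. The data are DNase-seq of whole B6NCrl embryos at embryonic day 10.5, both sexes pooled, in 2 biological replicates that form 1 group. DNase I cuts DNA most readily where nucleosomes are displaced. Its cut sites were deposited as 150 bp peaks, each with a strength score whose definition is not given in the sources used here, and as wider hotspots with the −log10 of a q-value. No treatment, other genotype or other age is compared, and the labels name no mutation or transgene.

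All 10 genes act in germ cells. Dazl binds messenger RNA, and Ddx4, Mael and Tdrd1 belong to the germ granules in which piRNAs are made to silence transposons. Hormad1, Sycp1 and Sycp3 build the axis and the synaptonemal complex of meiotic chromosomes. Tex14 holds the bridges between dividing germ cells open, Stk31 is a tudor domain protein of male germ cells, and Brdt reads acetylated histones in spermatids and spermatocytes. Promoters of this kind are known for an unusual control. Most CpG-rich promoters stay free of DNA methylation in every tissue, whereas those of many germline genes become methylated in the body cells of the embryo after implantation and are bound by the repressor complex PRC1.6. Its subunits MGA and MAX recognise the E-box CACGTG, and its subunit E2F6 recognises a site with the core GCGGGAA. Primordial germ cells, which later switch such genes on, are a rare population in an embryo of this age. In a mixture of tissues, a site that is open in few cells and a site that is weakly open in many cannot be told apart.

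Both motifs are frequent among the promoters of the members. Promoter sequences came from RefSeq on GRCm38.p6, from 250 bases before to 50 after each start, and all 10 members matched. The stretches are shown because 8 of the promoters, all but those of Dazl and Tex14, hold the E-box. They run 5′ to 3′ along the gene and end at the base before the RefSeq start, except for Mael, whose stretch covers bases 250 to 121 before it, Brdt, whose stretch ends 36 bases before it, and Ddx4, whose 30 bases end 12 bases before it. Capitals mark the E-box and the E2F6 core on either strand.
Ddx4 (chr13:112652322-112652351, minus strand): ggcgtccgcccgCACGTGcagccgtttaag
Mael (chr1:166238865-166238994, minus strand): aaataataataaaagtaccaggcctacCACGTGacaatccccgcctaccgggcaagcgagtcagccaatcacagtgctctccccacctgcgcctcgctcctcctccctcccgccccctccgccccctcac
Hormad1 (chr3:95559547-95559676, plus strand): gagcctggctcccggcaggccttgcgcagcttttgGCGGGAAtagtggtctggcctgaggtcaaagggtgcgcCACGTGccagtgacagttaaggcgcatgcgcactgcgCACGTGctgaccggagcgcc
Sycp1 (chr3:102936101-102936230, minus strand): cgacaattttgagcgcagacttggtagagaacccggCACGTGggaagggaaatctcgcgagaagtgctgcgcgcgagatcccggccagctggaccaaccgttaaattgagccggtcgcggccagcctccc
Sycp3 (chr10:88459457-88459586, plus strand): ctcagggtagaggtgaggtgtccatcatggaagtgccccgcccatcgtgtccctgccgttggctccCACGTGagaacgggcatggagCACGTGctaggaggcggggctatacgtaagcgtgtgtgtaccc
Tdrd1 (chr19:56826079-56826208, plus strand): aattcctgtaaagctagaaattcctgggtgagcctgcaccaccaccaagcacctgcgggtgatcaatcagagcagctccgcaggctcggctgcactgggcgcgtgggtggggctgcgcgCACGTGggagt
Stk31 (chr6:49395474-49395603, plus strand): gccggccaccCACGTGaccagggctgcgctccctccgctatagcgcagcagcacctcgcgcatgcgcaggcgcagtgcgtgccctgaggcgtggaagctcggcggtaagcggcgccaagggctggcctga
Brdt (chr5:107331064-107331158, plus strand): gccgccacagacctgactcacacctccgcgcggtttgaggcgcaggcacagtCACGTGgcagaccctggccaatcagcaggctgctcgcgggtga
Dazl (chr17:50293621-50293750, minus strand): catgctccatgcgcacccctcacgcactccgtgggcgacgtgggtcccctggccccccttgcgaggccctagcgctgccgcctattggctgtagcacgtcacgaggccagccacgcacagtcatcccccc
Tex14 (chr11:87404935-87405064, plus strand): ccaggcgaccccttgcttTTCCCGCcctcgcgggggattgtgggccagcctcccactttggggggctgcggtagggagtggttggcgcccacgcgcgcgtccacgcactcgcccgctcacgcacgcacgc

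The E-box CACGTG, which reads the same on both strands, stood in 8 of the 10 promoters, all but those of Dazl and Tex14. It stood in 8.09% of the 16522 promoters in the table, and in 10.9% of the 7709 with a high CpG content. In Hormad1 it occurred at bases 57 to 52 and 20 to 15 before the start, and in Sycp3 at bases 64 to 59 and 43 to 38. Such a repeat was found in 2 members and in 0.787% of all promoters. The others had 1 each, at 29 to 24 bases before the start in Ddx4, 223 to 218 in Mael, 94 to 89 in Sycp1, 11 to 6 in Tdrd1, 120 to 115 in Stk31 and 78 to 73 in Brdt. Counted from the first GENCODE start in place of the RefSeq start, 7 members had an E-box in the same window, against 7.75% of all genes. The gene that dropped out was Ddx4, whose starts in the 2 annotations lie 165 bp apart.

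The E2F6 core GCGGGAA was found on either strand in 4 members, Ddx4, Hormad1, Tex14 and Sycp3, against 6.22% of all and 10.3% of high-CpG promoters. In Ddx4 and Sycp3 it lies upstream of the stretch shown, at bases 136 to 130 and 147 to 141 before the start. Both motifs together stood in 3 members, Ddx4, Hormad1 and Sycp3, against 0.599% of all promoters and 1.06% of high-CpG promoters. In Tex14 and Ddx4 the E2F6 core overlapped a GC box.

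A further 8 motifs were searched on both strands. GGGCGG, the GC box bound by Sp factors, was in 5 members against 48.2% of all and 73.0% of high-CpG promoters, and the CCAAT box of NF-Y was in 5 against 38.8% and 37.6%. The core of the NRF1 site was in Hormad1 and Stk31, against 1.38% of all promoters. AGGTGTGA, a T-box site, was in Sycp3 and Brdt against 1.19%, TAACNG, the MYB site, in 3 members against 20.5%, and TATAAA, the TATA box, in Stk31 alone against 12.9%. TGACGT, part of the CRE site, was in Dazl alone against 8.97%, and the core of the CTCF site was in none of the members and in 0.0363% of all promoters. A match is a run of letters and not a measured binding site.

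**Figure D1:**
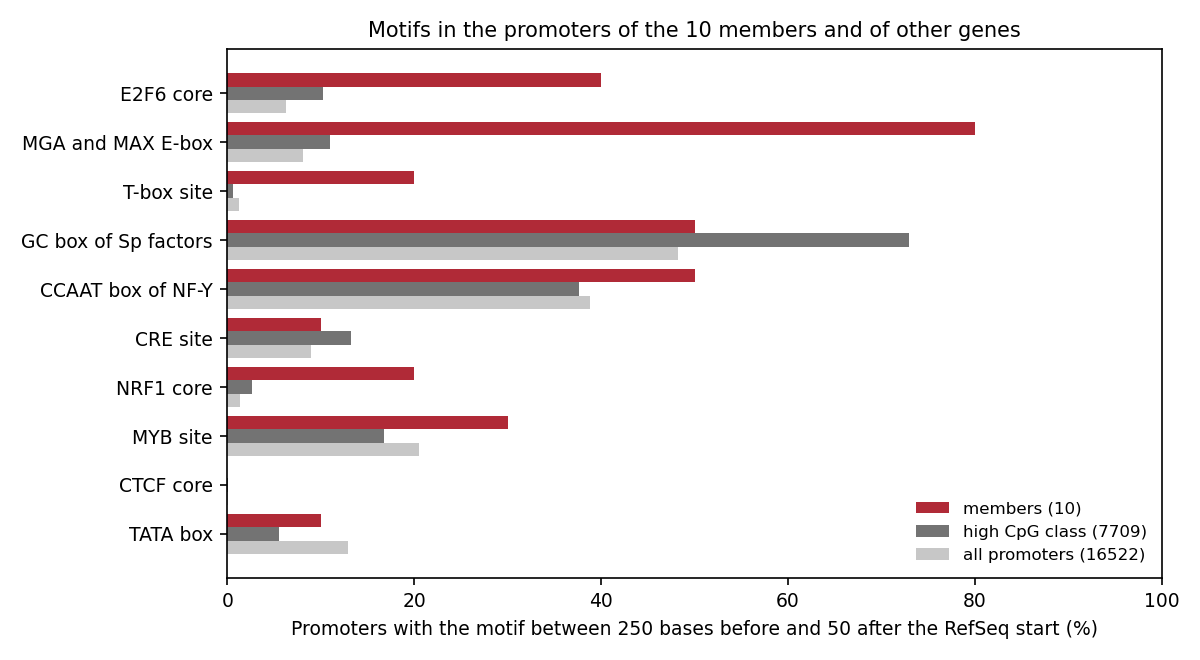
Share of promoters (x axis, percent) that hold each of 10 motifs (y axis), for the 10 members in red, promoters of the high CpG class in dark grey and all promoters in light grey. The E-box was in 80% of members, which is 8 of 10, against 10.9% of high-class and 8.09% of all promoters.

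CpG content was measured, over the 500 bp on either side of the first start, as the number of CpG dinucleotides divided by the number that the base composition predicts. This CpG ratio was 0.742 in Ddx4, 0.734 in Dazl, 0.731 in Stk31, 0.721 in Sycp1, 0.694 in Hormad1, 0.693 in Mael, 0.679 in Tex14, 0.672 in Tdrd1, 0.652 in Sycp3 and 0.534 in Brdt. The median was 0.694, against 0.552 for all protein-coding genes, and 9 of the 10 lay above that value. Brdt lay below it, so its promoter is not rich in CpG by this measure. By classes set on windows of 500 bp, high where a window had a ratio above 0.75 and more than 55% G and C, 8 members were high and Sycp3 and Brdt were intermediate.

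The word open is used here for a gene that has, in each replicate, a peak at a distance of at most 1 kb from one of its TSSs. This held for 3 of the 10 members, Dazl, Tex14 and Brdt, and for 69.7% of all protein-coding genes. In the high class 2 of 8 members were open, while 98.0% of the 9915 genes of that class were, and in the intermediate class 1 of 2 was, against 81.6% of 4102 genes. Only 28.2% of the 7921 genes of the low class were open. Of the 4985 genes whose ratio lay within the range of the members, 96.0% were open. The high class held 195 genes that were not open, and 118 of these had no TSS peak in either replicate. Ddx4, Mael, Hormad1, Sycp1 and Stk31 were 5 of the 118.

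**Figure D2:**
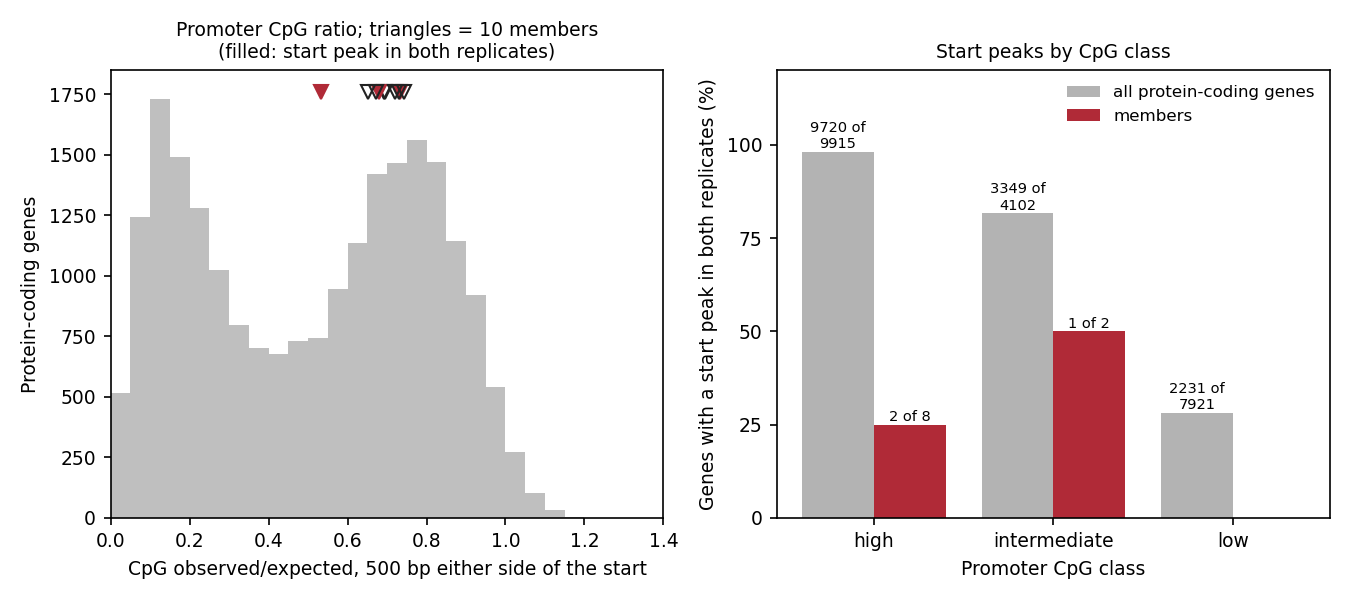
Left, histogram of the CpG ratio around the first start of all protein-coding genes (y axis, number of genes), with a triangle for each of the 10 members, filled red where a TSS peak was present in both replicates. Right, percentage of genes with a TSS peak in both replicates in the high, intermediate and low CpG classes, for all genes in grey and members in red, with 2 of 8 high-class members open against 9720 of 9915 genes.

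The count depends on which start is asked for. With the 5'-most TSS alone, 2 members had a peak within 1 kb in both replicates, Dazl and Tex14, against 65.3% of all genes. Within 250 bp of that TSS, a limit added after the data were seen, none of the 10 did, against 59.2% of all genes and 93.9% of the high class. In replicate 1 no member had a peak that near, and in replicate 2 Tdrd1 did. A TSS lay inside a hotspot in both replicates in 2 members, Dazl and Brdt, against 63.7% of all genes and 94.7% of the high class. With replicate 2 alone 5 members had a TSS peak, since Sycp3 and Tdrd1 joined, against 71.9% of all genes, and with replicate 1 alone 3 did, against 70.8%. In each of the 3 open members a peak in both replicates had the gene's own TSS nearest, against 66.5% of all genes. Replicate 2 has more peaks in all, 229568 against 207946, and a higher median strength, 50 against 41.

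**Figure D3:**
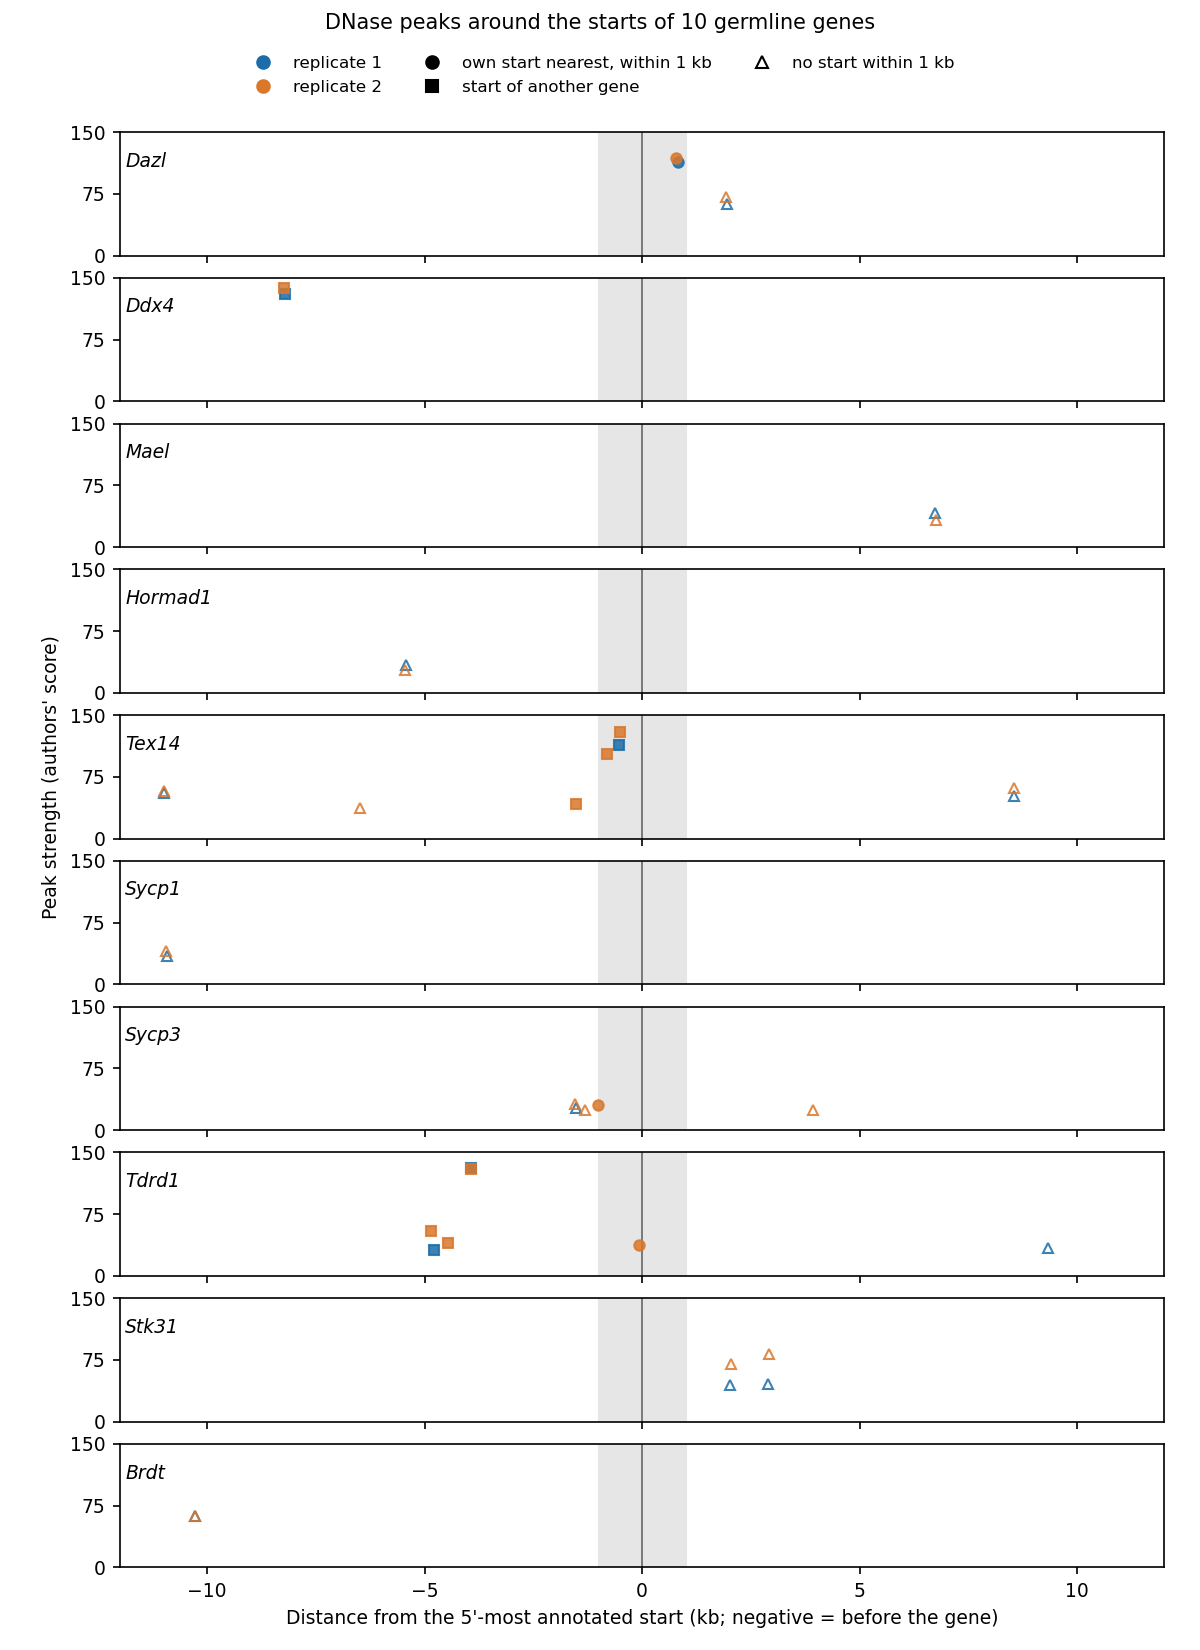
Peak strength (y axis, the authors' score) against the distance of the peak's midpoint from the 5'-most TSS (x axis, kb, negative before the gene) for each of the 10 genes, replicate 1 in blue and replicate 2 in orange, with the 1 kb around the TSS shaded. Circles are peaks nearest to a TSS of the gene itself, squares peaks at another gene's TSS and triangles peaks over 1 kb from any TSS. Ddx4, Mael, Hormad1, Sycp1, Stk31 and Brdt have no peak in the shaded stretch, and the nearest of Sycp3 has its midpoint just outside it.

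Among the genes of RNA binding and germ granules, Dazl (chromosome 17, 50279395 to 50293636, minus strand) had the only strong peak near its first start. Its strength was 114 in replicate 1 and 118 in replicate 2, a mean of 116 ± 2.83 (SD, n = 2). A lower mean was found in 53.9% of open protein-coding genes, so the peak sits near the middle of their range. It did not cover the first start. The midpoint lay 826 bp inside the gene in replicate 1 and 786 bp in replicate 2, and 82 and 42 bp past the start of a shorter protein-coding transcript, Dazl-204. The hotspots around it were 637 and 858 bp wide and ended 487 and 360 bp short of the first start. The peak of replicate 2 held 15 CpGs in its 150 bp and overlapped the first exon of Dazl-204. A second peak in an intron, at 1946 and 1926 bp, had strengths of 63 and 71 and no CpG. No other protein-coding gene has a TSS in the locus of Dazl.

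Ddx4 (chromosome 13, 112598333 to 112652475, minus strand), the RNA helicase also called Vasa, had no TSS peak in either replicate. The nearest peaks to its first start, of 130 and 138, lay 8216 and 8236 bp before it and belonged to the TSS of Slc38a9, an amino acid transporter of the lysosome. Inside the gene body stood a single shared peak, with 25 in replicate 1 and 33 in replicate 2, in an intron 30.7 kb from the start.

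Mael (chromosome 1, 166201201 to 166238747, minus strand) had no TSS peak either. Its nearest peak lay 6736 and 6756 bp inside the gene with strengths of 41 and 33. The strongest peaks of its locus, 75 and 98, were at the TSS of Ildr2, which starts 15.4 kb away.

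Tdrd1 (chromosome 19, 56826209 to 56870012, plus strand) differed between the replicates. Replicate 2 had a peak of strength 37 at its first start, with the midpoint 58 bp before it, inside a hotspot of 226 bp with a −log10 q of 3.15. Replicate 1 had neither peak nor hotspot there. Of all peaks of replicate 2 the median strength is 50, so this was a weak peak. It is shown because it was the single peak within 250 bp of a first start among the members, with CpG in capitals.
Tdrd1 (chr19:56826076-56826225, plus strand): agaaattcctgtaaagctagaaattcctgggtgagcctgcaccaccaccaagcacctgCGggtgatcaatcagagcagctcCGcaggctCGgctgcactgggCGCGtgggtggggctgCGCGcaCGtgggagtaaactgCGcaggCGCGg

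This peak spans the E-box of Tdrd1. By contrast the TSS of Ccdc186, which starts 4 kb upstream on the opposite strand, had peaks of 131 and 130. The gene at the other end of the locus, Vwa2, an extracellular matrix protein, had 52 and 64.

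None of the 3 genes of the meiotic chromosome axis and synaptonemal complex was open. Sycp1 (chromosome 3, 102818499 to 102936100, minus strand), the transverse filament, lay farthest from any peak. The nearest to its first start were 10930 and 10950 bp before it, at 34 and 40. Its locus of 177.6 kb held 5 peaks in each replicate, and the strongest, 82 and 87, lay past the 3′ end, away from any TSS. The neighbour Nr1h5 had a TSS peak of 28 in replicate 1 and none in replicate 2.

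Hormad1 (chromosome 3, 95559677 to 95587671, plus strand), which marks unpaired chromosome axes, had 3 peaks in its locus in each replicate. The nearest lay 5426 and 5446 bp before the start with strengths of 34 and 28. The strongest, 127 and 134, were at the TSS of Golph3l, 29.3 kb away, a gene of the Golgi.

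Sycp3 (chromosome 10, 88459569 to 88473236, plus strand), a core of the lateral element, stood at the edge of the 1 kb limit. In replicate 2 a peak of 31 had its midpoint 1018 bp before the first start and its edge within 1 kb. In replicate 1 the nearest peak, of 27, lay 1518 bp before the start and so outside. The peak of replicate 2 was 83.3% repeat by the genome's soft masking. The strongest peak of the whole locus was 37 in replicate 1 and 32 in replicate 2, the lowest maximum of the 10 loci. Among the other members the nearest peaks outside the limit lay 1.5 kb before Tex14, at 42 in replicate 2, 1.9 kb inside Dazl and 2 kb inside Stk31.

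Tex14 (chromosome 11, 87405065 to 87555823, plus strand) had TSS peaks, but those at its 5′ end lay nearer to another gene. Its strongest were 114 in replicate 1 and 130 in replicate 2, a mean of 122 ± 11.3 (SD, n = 2). Their midpoints were 8 and 28 bp from a TSS of Rad51c, a gene of homologous recombination repair that body cells also use, and 534 and 514 bp before that of Tex14. A further peak of 103 in replicate 2 was 152 bp from another Rad51c TSS and 794 bp from that of Tex14. The genes are transcribed away from each other, and the nearest of the 4 Rad51c starts lies 111 bp from that of Tex14. The 110 bases between these starts are shown in the direction of Tex14, with CpG in capitals.
Tex14 and Rad51c (chr11:87404955-87405064, plus strand): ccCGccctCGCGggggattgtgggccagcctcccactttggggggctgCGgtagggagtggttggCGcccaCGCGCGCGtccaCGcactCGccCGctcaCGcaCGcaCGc

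No peak of either replicate overlapped this stretch. The nearest hotspots ended 139 bp before the Tex14 start in replicate 1 and 46 bp before it in replicate 2. The hotspot of replicate 2 thus reached into the stretch.

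Tex14 still counted as the nearest gene for peaks at its later starts. Near the start of Tex14-205, 22.5 kb inside the gene, peaks of 106 and 116 lay 600 and 580 bp before that start, and peaks of 49 and 85 lay 380 bp before it. When small RNA genes were included, the stronger pair was nearer to Gm22068, annotated as a small nuclear RNA gene, at 274 and 294 bp. In the weaker pair 42.0% of 32-base words occurred once in the genome, against all of them in the stronger pair. Near Tex14-203, a processed transcript, were peaks of 46 and 50.

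The body of Tex14 held 33 peaks in replicate 1 and 34 in replicate 2, more than any other member. Along it lie 7 annotated small RNA genes, Rnu1a1, Gm22068, Rnu3b1, Gm23137, Rnu3b3, Rnu3b4 and Rnu3b2, of which Rnu1a1 is a U1 gene and the Rnu3b genes encode the U3 small nucleolar RNA that ribosome assembly needs. Of the gene body peaks, 17 in replicate 1 and 20 in replicate 2 lay within 1 kb of these genes, with median strengths of 73 and 79.5. The other 16 and 14 had medians of 30 and 46 and reached 63 and 77. All 6 peaks of strength 100 or more in replicate 1, and all 8 in replicate 2, were near a small RNA gene. At Rnu1a1 the strongest peaks were 115 before and 120 after the gene in replicate 1, and 119 and 125 in replicate 2. By chromosome coordinate, peaks before and after the gene were seen in both replicates at 5 of the 7. The exceptions were Gm23137 and Rnu3b2, each without a peak at higher coordinates in replicate 1. Gm23137 lies on the minus strand, and its replicate 1 peak, of 109, is also the one counted after Rnu3b1. Whether these small RNA genes bear on the peaks assigned to Tex14 was not tested beyond their position.

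**Figure D4:**
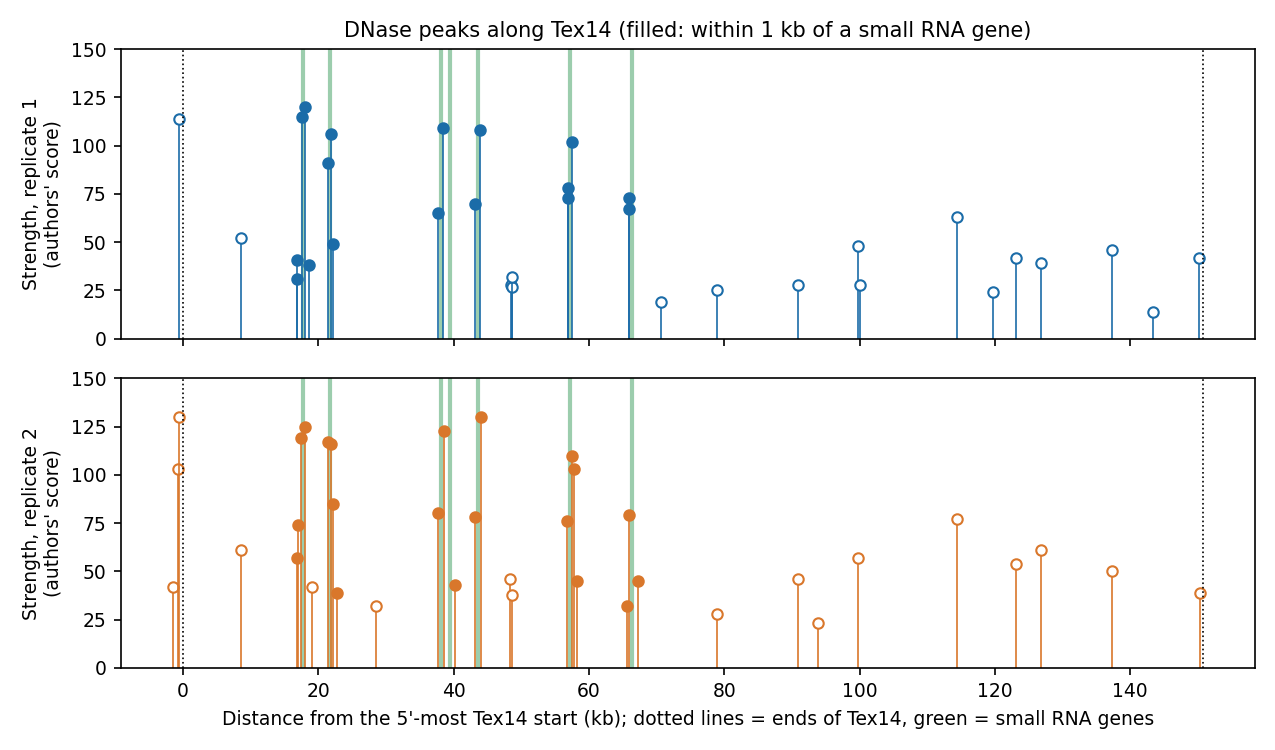
Strength of each peak (y axis, the authors' score) against its distance from the 5'-most Tex14 start (x axis, kb), replicate 1 above and replicate 2 below, with dotted lines at the ends of Tex14 and green lines at 7 small RNA genes. Filled points lie within 1 kb of a small RNA gene and reach 120 and 130, while the open points inside the gene reach 63 and 77.

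Stk31 (chromosome 6, 49395604 to 49469501, plus strand) had no TSS peak. Its nearest were in an intron, 2026 and 2046 bp inside, with strengths of 44 and 70, and a second pair at 2906 and 2926 bp had 46 and 82. Both pairs held no CpG. Fam221a, the neighbour with a TSS peak, had 119 and 132, 28 kb before the first start of Stk31.

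Brdt (chromosome 5, 107331159 to 107387058, plus strand) was open, but not at its first start. The nearest peaks to that start were 10268 bp before it, at 63 and 62. The peaks that made it open lay at the TSS of Brdt-204, a processed transcript that begins 28678 bp inside the gene. The strongest had 109 in replicate 1 and 117 in replicate 2, a mean of 113 ± 5.66 (SD, n = 2), with its midpoint 286 bp before that TSS in both. A lower mean was found in 49.1% of open genes. Further peaks around it had 66, 39 and 41 in replicate 1 and 63 and 56 in replicate 2, inside hotspots of 1434 and 1592 bp. The same 150 bp were called in both replicates and are shown with CpG in capitals. They hold 4 CpGs and overlap an exon of Brdt.
Brdt (chr5:107359476-107359625, plus strand): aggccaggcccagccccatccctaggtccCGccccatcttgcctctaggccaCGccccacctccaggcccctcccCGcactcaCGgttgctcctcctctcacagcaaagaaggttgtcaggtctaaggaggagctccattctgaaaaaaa

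The nearest open neighbour of Brdt was Ephx4, an epoxide hydrolase, with a TSS 71.6 kb away. Its strongest peaks within 1 kb of a TSS were 50 and 70, but the 70 lay nearer to a TSS of the antisense gene Gm42902, and the strongest replicate 2 peak nearest to Ephx4 itself was 58.

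Other genes in these loci had TSS peaks, some above and some below the medians of open genes, 109 and 118. Of the 14 protein-coding neighbours with a TSS in a locus, 10 were open, beside 69.7% of all protein-coding genes. Il31ra (63 and 58) and Sept4 (57 and 73) were open besides those named above. Chpt1, Gnptab, Gm11492 and Nr1h5 were not, and the TSSs of Chpt1 and Gnptab considered were only those inside the locus of Sycp3. In 5 of 10 loci, those of Ddx4, Mael, Hormad1, Tdrd1 and Stk31, the strongest peak was at another gene's TSS in both replicates. The same share over the loci of all protein-coding genes was not computed, so whether this is unusual cannot be told. In the Tex14 locus 2 peaks of replicate 2 tied at 130, at Rad51c and in the Tex14 intron beside Rnu3b3.

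**Figure D5:**
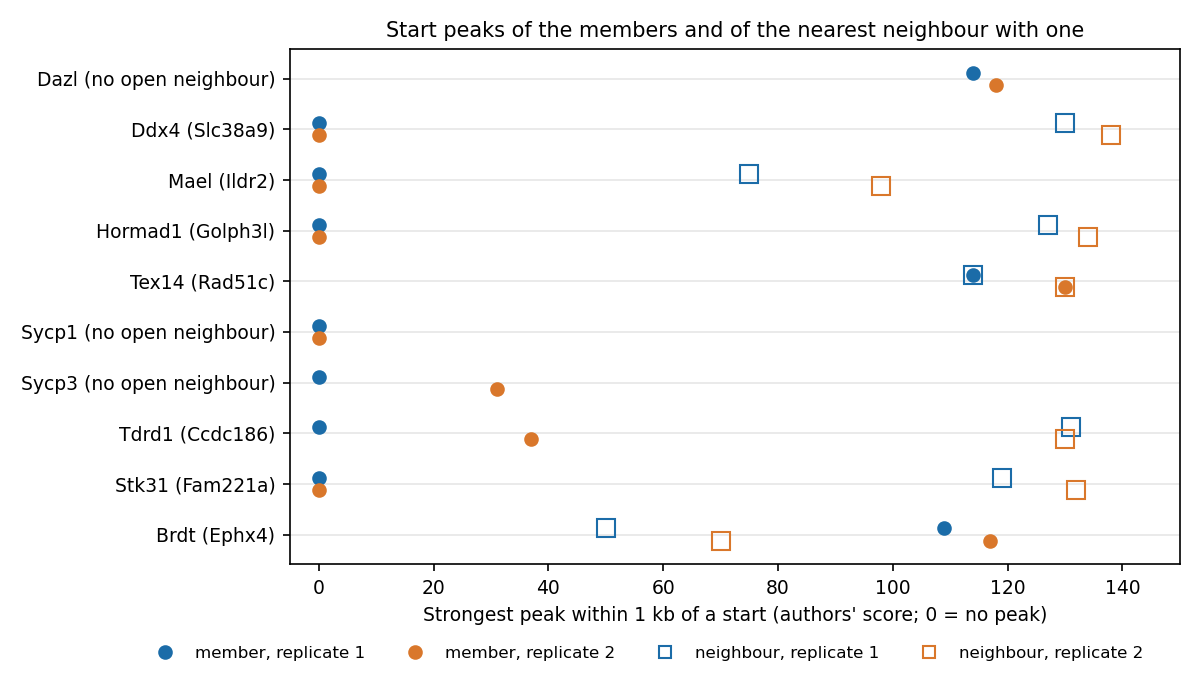
Strength of the strongest peak within 1 kb of a TSS (x axis, the authors' score, 0 where there was no peak) for each of the 10 genes as filled circles and for its nearest neighbour with a TSS peak, named in brackets, as open squares, replicate 1 in blue and replicate 2 in orange. Slc38a9, Ildr2, Golph3l, Ccdc186 and Fam221a reach 75 to 138, beside members at 0 to 37, and Tex14 and Rad51c share their values.

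Across all 10 loci, 1189.5 kb in sum, replicate 1 had 107 peaks and replicate 2 had 112. Among the former, 82 or 76.6% had an overlapping peak in the other replicate, beside 74.5% of all its peaks genome-wide. For replicate 2 the shares were 70.5% in these loci and 67.6% genome-wide. The shared peaks comprised 7 at the members' own TSSs, 15 at other TSSs, 2 in exons, 37 in introns and 21 in flanks. Tex14 alone gave 32 of them, and 50 remained without it. Shared peaks over 1 kb from any TSS had a median density of 3.89 per 100 kb over the 10 loci, from 1.14 at Hormad1 to 12.3 at Tex14. For all protein-coding genes the median was 4.47, with quartiles of 1.62 and 7.50, and 3 members lay above it.

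The sequence around the first start of each member was unique in words of 32 bases. Whether reads were placed there was not tested. In the window from 250 bp before to 49 bp after the 5'-most TSS, 100% of 269 words of 32 bases occurred once in the genome, in all 10 members. Outside the members the open shares with and without an E-box lay close together in the high class. With the members left out, 98.1% of 838 high-class promoters with an E-box were open, and 98.4% of 6863 without one. Among the members 1 of 8 with an E-box was open, and none at its 5'-most TSS, while both without it were. Those without it are Dazl and Tex14, and the Tex14 peaks at the first start lay nearer to Rad51c. Members and motifs were chosen with these peaks known, so a link between E-box and openness was not tested. Among 55 other germline genes with a promoter sequence, 5 of 12 with an E-box and 22 of 43 without were open. Over all genes with a promoter sequence, 86.7% of 1336 with an E-box were open and 70.1% of 15186 without. CpG class was not matched in these counts, and no difference was tested.

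Other germline genes are given beside the members, with no test of a difference. Of 69 genes of 3 further lists, 33 were open (47.8%), against 69.7% of all protein-coding genes. In the high class 22 of the 28 were open, against 98.0% of all genes of that class. Among genes of piRNAs and germ granules 11 of 20 were open, led by Tdrkh (138 and 139), Exd1 (132 and 140) and Ddx25 (124 and 135), with Asz1, Fkbp6 and Gtsf1 among the closed. Among genes of synapsis and recombination 17 of 29 were open, led by Msh5 (136 and 143), Stag3 (134 and 131) and Prdm9 (127 and 131). Majin, Rad21l and Rec114 were among those without a peak. Genes of late sperm and oocytes were open in 5 of 20 cases, led by Gdf9 (124 and 130), Zpbp (98 and 123) and Izumo1 (31 and 73), with Acrv1, Bmp15 and Figla closed. Whether these peaks belong to a neighbour's start was examined only by asking whether the gene's own TSS was nearest in both replicates. That held for 10, 16 and 4 genes in the 3 lists, and not for the open genes Henmt1, Smc1b and Zpbp.

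Of 10 markers of primordial germ cells 8 were open, against 69.7% of all genes. Among them were Kit (115 and 122), Prdm1 (114 and 117) and Tfap2c (85 and 108). Other tissues of the embryo also use these 3 genes. Pou5f1 (68 and 72), Dppa3 (30 and 37), Prdm14 (59 and 85), Ifitm3 (68 and 88) and Alpl (68 and 80) were open as well. At the 5'-most TSS alone, Pou5f1 and Dppa3 did not have a peak within 1 kb in both replicates. Whether the peaks of any of these 8 genes came from germ cells was not tested. Nanos3 had a peak in replicate 2 alone (65) and Dnd1 had none. All 19 genes that encode repressors of germline promoters, DNA methyltransferases and PRC1.6 subunits among them, were open, against 69.7% of all genes. Of the 19, 12 were of the high CpG class, in which 98.0% of all genes were open, 3 were intermediate and 4 low. The strongest were L3mbtl2 (131 and 135), Uhrf1 (130 and 134) and Max (134 and 128). A set of 13 markers of embryonic tissues was read beside the tissue label. Sox1, Pax6, Nkx2-5, Tbx5, Hand2, Foxc1, Kdr, Foxa2, Tfap2a, Sox10 and Twist1 were open, Myf5 had a peak in replicate 1 alone, and Gata1 had none. That is 11 of 13, against 69.7% of all genes. Of the 13 markers, 6 were of the high CpG class, 4 intermediate and 3 low. Over all genes 98.0%, 81.6% and 28.2% of these classes were open, so the count cannot check the label.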

How the data were processed

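Whole mouse embryos were profiled by DNase-seq in 2 biological replicates. The authors deposited a peak list and a hotspot list for each replicate, on the mm10 build per the labels. The strength of a peak is a deposited whole-number score with no stated definition. Hotspots carry the deposited −log10 of a q-value, which reads 100 for the smallest q-values. No aligner, caller or calling threshold is stated (not given in the sources used here). The read depth is unknown, so no interval is given. The replicates held 208148 and 229803 peak lines, and peaks outside the nuclear chromosomes were left out.

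Genes, TSSs and exons came from GENCODE M21. The genome sequence was GRCm38.p6, which has the same chromosomes as mm10. A TSS peak had an edge within 1 kb of any TSS of the gene, and its owner was the protein-coding or long noncoding gene with the TSS nearest to its midpoint. A shared peak is a replicate 1 peak with at least 1 bp in a replicate 2 peak. Repeats were read from the soft masking of the genome, and words of 32 bases were counted on both strands. Motifs were counted in RefSeq promoters. The CpG classes followed a search of 500 bp windows from 700 bp before to 500 bp after the first start.

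The members, the 7 gene lists, the 10 motifs and the rule for named genes were chosen with earlier results of these data known. That rule took all members, the neighbours that own or stand nearest to their TSS peaks, the 3 strongest open and the first 3 closed genes of each germline list, the 3 strongest repressors and every embryo marker. The symbol Six6os1 of the synapsis list was not matched. Genes named beyond the rule were named after their values were seen. No test was made, since the members were chosen with their peaks in view and there is 1 group. The calls were tested on simulated peaks. Python 3.11.15, numpy 2.4.6, pysam 0.24.0 and matplotlib 3.10.9 were used.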

Additional observations from a re-analysis of the deposited data

How the results depend on the processing

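Of 40 alternatives, 26 left a count within 1.5 times its value or a median within its spread, and 14 did not. The 3 members with a TSS peak in both replicates became 5 with a TSS window of 2500 bp (73.3% of all genes), where Sycp3 and Stk31 joined, and 0 when a peak within 250 bp of the 5'-most TSS was asked for, an alternative chosen after seeing the data. Leaving out a replicate gave 3 to 5. The 3 members whose own TSS was nearest became 5 with 2500 bp (70.0% of all genes), 1 with the 5'-most TSS only (61.1%), which was Dazl, and 3 to 5 with a replicate left out (68.3% and 69.6%). The 2 members with a TSS in a hotspot became 0 with the 5'-most TSS only (56.9% of all genes) and 2 to 4 with a replicate left out (64.4% and 66.8%). The 82 shared peaks became 131 with flanks of 50 kb and 49 with the stronger 50% of peaks, and a single replicate had 107 to 112. The median CpG ratio was 0.600 over 1 kb either side of the TSS. The median distal density was 3.22 at a distance over 2500 bp from any TSS and 4.87 to 5.48 with a single replicate. Beyond those named, the cause of these shifts was not tested. The 33 other germline genes stayed at 24 to 39 under every alternative run. The read depth is unknown, so a weak site cannot be told from one below detection, and 2 replicates give no test of the difference between them. No paired analysis was possible because the samples form 1 group.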

Other observations

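Sycp3 and Tdrd1 had a TSS peak in replicate 2 alone, at 31 and 37, and no member had one in replicate 1 alone. Over all protein-coding genes 478 had a TSS peak in replicate 2 alone and 239 in replicate 1 alone. Tdrd1 was also 1 of the 77 high-class genes with a TSS peak in a single replicate.

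The introns of Stk31 and Dazl held pairs of peaks within 3 kb of the first start that had no CpG in either replicate, at 44 to 82 in Stk31 and at 63 and 71 in Dazl. Peaks without a CpG also stood in other loci, as in introns of Mael (43 and 41, both in replicate 1). The trait is therefore not particular to Stk31 and Dazl.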
